A study of Mus musculus with 2 samples.

Results

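Mir191, Mir425 and Mir378a are microRNA (miRNA) genes whose small RNA reads were examined in the neural tube of newborn mice, 3 of 1973 miRNA gene rows in the count tables. They were taken by name, and were chosen by their read counts. Mir425 was read on its own strand, as row Mir425. The Mir191 locus was read as the opposite-strand counts of row Gm24083, and the Mir378a locus as those of row Gm25301. Mir191 and Mir378a were not analysed here as rows of their own. Because these counts selected the genes, the strand counts and levels below are descriptions without a test.

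The study has 1 group of 2 small RNA libraries, each from a single neural tube of a pup at postnatal day 0. The mice were of strain B6NCrl, no treatment or gene change is labelled, and the pups were littermates of dam 1. No sex was recorded. The libraries held RNA below 30 bases, with own-strand totals of 3216453 counts in pup 1 and 3660693 in pup 2. Of all reads, 10.8 to 11.0% were unmapped and 35.4 to 35.7% fitted several places and were counted to no gene. A gene is called detected here where neither pup had fewer than 10 counts. That held for 7 of the 10 listed neuronal miRNA genes, and the list summed to 20836 and 23954 CPM, the count scaled to the own-strand total of the library. Mir137, the highest of them, stood at 16076 CPM ± 1484 (SD, n = 2) and made up most of that sum. Mir128-1, Mir153, Mir128-2 and Mir9-3 stood at mean levels of 3126, 1838, 868 and 459 CPM. Mir9-1, Mir9-2, Mir124a-1, Mir124a-2 and Mir124a-3 stood at 1.03 to 13.1 CPM. Reads that fitted several of these genes were not counted.

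A miRNA gene is transcribed as a hairpin from which a short mature strand is cut. Bases 2 to 8 of that strand, the seed, choose the messenger RNAs that are repressed. miR-191 and miR-425 come from neighbouring hairpins, are found in many tissues including blood cells, and serve as reference RNAs in small RNA assays. miR-378a comes from within Ppargc1b, which encodes PGC-1β, a coactivator of mitochondrial and lipid genes, and is known from muscle and fat.

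The mature strands and hairpins of Mir191 and Mir425 are shown because they tell the neighbouring genes apart and show what the opposite-strand row covers. All lie on chromosome 9 of mm10 (GRCm38). They are given 5′ to 3′, and those of Mir191 and Mir425 are from RefSeq (GRCm38.p6). In the mature strands capitals mark the seed.
miR-191-5p: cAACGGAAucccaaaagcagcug
miR-191-3p: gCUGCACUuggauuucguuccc
miR-425-5p: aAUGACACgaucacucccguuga
miR-425-3p: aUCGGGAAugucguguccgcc
In the hairpins capitals mark both mature strands.
Mir191: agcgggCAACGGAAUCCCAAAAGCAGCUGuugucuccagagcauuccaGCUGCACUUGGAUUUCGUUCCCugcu
Mir425: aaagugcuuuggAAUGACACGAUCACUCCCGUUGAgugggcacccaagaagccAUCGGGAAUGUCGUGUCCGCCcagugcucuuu
In Gm24083, from GENCODE M21, capitals mark the bases complementary to the Mir191 hairpin.
Gm24083: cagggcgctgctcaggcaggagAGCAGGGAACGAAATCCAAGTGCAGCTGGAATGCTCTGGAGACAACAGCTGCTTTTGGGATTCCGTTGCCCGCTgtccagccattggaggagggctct

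The 4 mature strands had 4 different seeds. Among 1738 mature mouse miRNA entries, no other entry had a seed of miR-191-5p, miR-191-3p or miR-425-3p. miR-489-3p shared the seed of miR-425-5p, and its gene Mir489 had 0 counts in pup 1 and 1 in pup 2. The hairpins of Mir191 and Mir425 shared at most 5 bases in a row. Against all other annotated miRNA genes on either strand, leaving out Gm24083 because it overlaps Mir191, the longest shared stretch was 12 bases for Mir191 and 13 for Mir425, well below the length of a mature strand. The row Gm24083 spans 120 bases, of which 74 are the exact complement of the Mir191 hairpin. A read opposite to Gm24083 could therefore also lie in the 24 or 22 bases beyond the hairpin, and the counts do not tell arms or flanks apart.

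All reads at the Gm24083 and Gm25301 rows lay on the opposite strand. Gm24083 had 0 own-strand and 9317 opposite-strand counts in pup 1, and 0 and 11052 in pup 2. Gm25301 had 0 own-strand and 6055 opposite-strand counts in pup 1, and 0 and 8534 in pup 2. Mir425 showed the reverse, with 2641 own-strand and 0 opposite-strand counts in pup 1, and 3960 and 2 in pup 2. The strand named for each gene thus held 99.9 to 100% of its reads. A count of 0 allows up to 3 counts, or 0.933 CPM in the library of pup 1 and 0.820 CPM in that of pup 2. Such limits, and the intervals below, cover counting error only, since reads copied from the same molecule were not told apart.

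**Figure D1:**
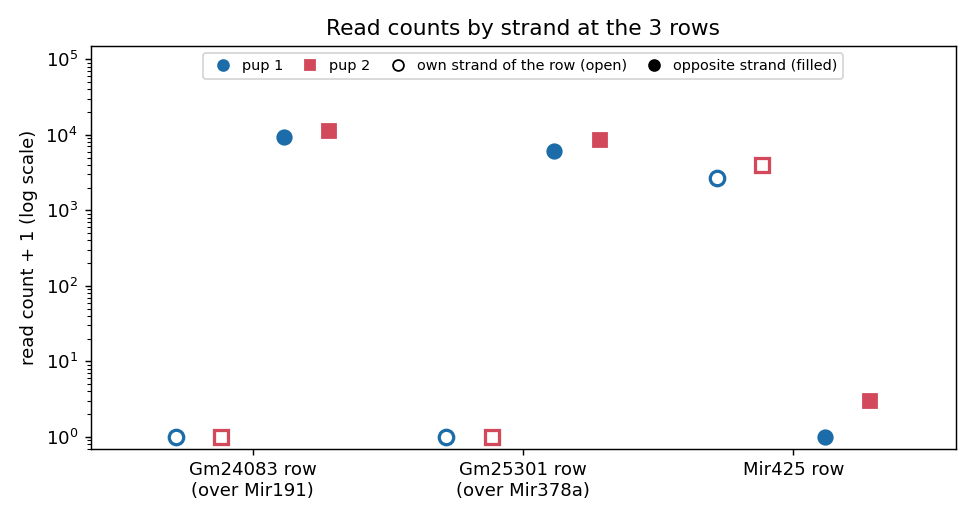
Read counts plus 1 (vertical, log scale) on the own strand (open) and the opposite strand (filled) of rows Gm24083, Gm25301 and Mir425, for pup 1 (blue circles) and pup 2 (red squares). The counts of Gm24083 and Gm25301 lie on the opposite strand only, from 6055 to 11052, and those of Mir425 on its own strand, with at most 2 opposite.

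Reads opposite to an annotated miRNA gene were rare outside a few loci. There were 68949 in pup 1 and 81286 in pup 2, and 99.9% of them in each pup lay at 11 loci with at most 2 own-strand counts. In the remaining rows 0.0031% and 0.0030% of the strand-assigned reads were opposite. The Mir191 locus held 13.5% of all opposite-strand reads in pup 1 and 13.6% in pup 2, and the Mir378a locus 8.78% and 10.5%. By counts over both pups these loci ranked 4 and 5 among the 11. The lowest of the 11 was Mir9-1, opposite to Gm25641, with 41 and 49 counts. Among rows with at most 2 own-strand counts, the next below the limit of 10 was Mir7654, with 1 and 7. Rows with more own-strand counts were left out of this order. A table read only by its own-strand column lists both rows, Gm24083 and Gm25301, at 0 and places the reads of Mir191 and Mir378a outside features.

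The miRNA genes of chromosome 9 lie close together. Mir191 spans 108568319 to 108568392 and Mir425 spans 108568777 to 108568861, both on the plus strand (mm10) and 384 bases apart. Gm24083 spans 108568295 to 108568414 on the minus strand. GENCODE M21 and RefSeq differ on the gene around them. In RefSeq, the gene Dalrd3, named for a DALR anticodon-binding domain, runs from 108567484 to 108572773 and contains both. In GENCODE M21, Dalrd3 starts at 108569886, which is 1024 bases past the end of Mir425. There both miRNA genes lie in an exon of the noncoding gene 4833445I07Rik (108567533 to 108569174, plus strand), whose spliced transcript instead has Mir191 in its intron and ends 2 bases before Mir425. The placing of both in Dalrd3 thus held in RefSeq and not in GENCODE M21.

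Mir378a lies on chromosome 18 (61397835 to 61397900, minus strand, mm10) and Gm25301 on the plus strand at 61397813 to 61397925. Mir378a lies in an intron of all 3 GENCODE transcripts of Ppargc1b that surround it, on the same strand, 2389 bases from the nearest exon, which is the opening exon of the gene. Ppargc1b runs from 61298136 to 61400431 in GENCODE M21, and the RefSeq gene (61291445 to 61400756) also contains Mir378a. The nearest other miRNA gene, Mir145a, is 249924 bases away, so Mir378a stands alone, whereas Mir191 and Mir425 are neighbours. Levels of Dalrd3 and Ppargc1b messenger RNA were not analysed here, since the rows are miRNA genes.

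**Figure D2:**
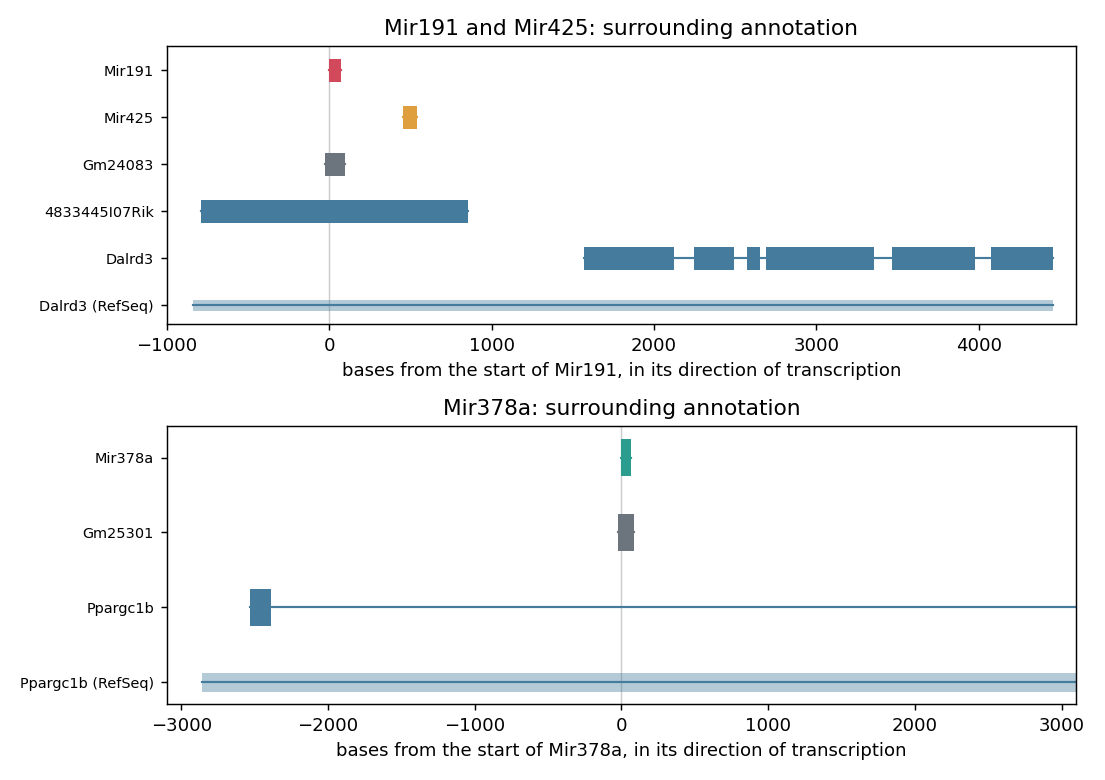
Annotated genes around Mir191 and Mir425 (upper panel) and Mir378a (lower panel), against distance in bases from the start of Mir191 or Mir378a in its direction of transcription. Blocks are miRNA genes or the exons of all GENCODE M21 transcripts laid over each other, thin lines are gene spans, and pale bars are RefSeq gene spans; Gm24083 and Gm25301 lie on the other strand, and Ppargc1b runs on past the right edge. GENCODE Dalrd3 begins 1024 bases past Mir425, whereas RefSeq Dalrd3 covers both miRNA genes, and Mir378a lies in an intron of Ppargc1b.

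The Mir191 locus had 2897 CPM in pup 1 and 3019 CPM in pup 2, a mean of 2958 CPM ± 86.6 (SD, n = 2). The Mir378a locus had 1883 and 2331 CPM, a mean of 2107 CPM ± 317. Mir425 had 821 and 1082 CPM, a mean of 951 CPM ± 184. The ranges of the 3 genes did not overlap, and the order was the same in both pups. Among 363 detected genes, the 11 opposite-strand loci included, they ranked 52, 66 and 105. Together they held 5600 CPM in pup 1 and 6432 CPM in pup 2. In whole tissue such as this, fewer cells that make a miRNA and less of it per cell cannot be told apart.

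By mean log2(CPM + 1), Mir191 lay 1.41-fold above Mir378a and Mir378a lay 2.22-fold above Mir425. For scale, 1.96 times the SD between pups, pooled over detected genes of like abundance in 4 classes, was 1.25-fold at the level of Mir191 and Mir378a and 1.33-fold at that of Mir425. This describes the order and is no test of it. The genes ranked beside each were picked for their closeness in level, so that they differ little follows from the choice. The genes ranked just above and just below were Mir106b (2988 CPM ± 369) and Mir708 (2834 CPM ± 48.1) for Mir191. They were Mir181a-1 (2204 CPM ± 197) and Mir770 (2099 CPM ± 190) for Mir378a. For Mir425 they were Mir351 (952 CPM ± 378) and Mir219a-2 (925 CPM ± 155), the latter from a gene of oligodendrocytes. Counts between genes also hold differences in how well each sequence is captured, which were not measured in either library.

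**Figure D3:**
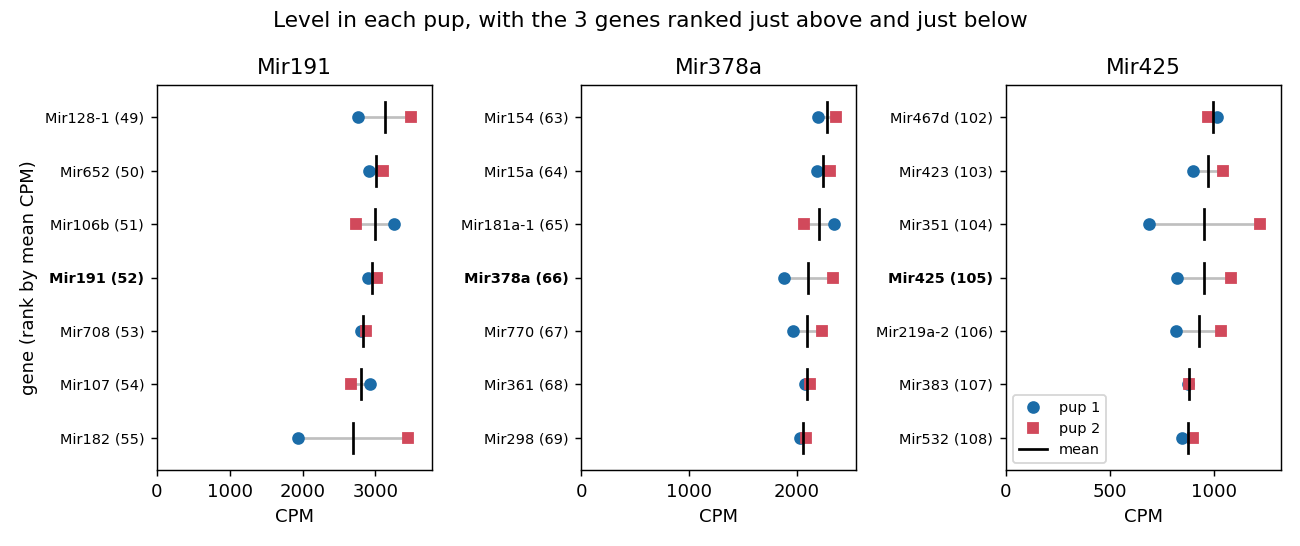
CPM (horizontal, from 0) in pup 1 (blue circles) and pup 2 (red squares), with the mean as a bar, for Mir191, Mir378a and Mir425 (bold) and the 3 genes ranked just above and just below each; ranks by mean CPM are in brackets. The points of Mir191 lie close together at 2897 and 3019 CPM, whereas those of Mir378a and Mir425 lie further apart, with pup 2 higher.

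The neighbours Mir191 and Mir425 differed in their count ratio between the 2 libraries. With 1 library per pup, differences between pups and between library preparations cannot be told apart. There were 3.53 Mir191 counts per Mir425 count in pup 1 and 2.79 in pup 2, a mean of 3.16 ± 0.52 (SD, n = 2). Mir191 made up 77.9% of their joint counts in pup 1 (exact 95% Clopper-Pearson interval 77.2 to 78.7%) and 73.6% in pup 2 (72.9 to 74.3%), so the counting intervals did not overlap. The ratio of Mir378a to Mir425 was 2.29 in pup 1 and 2.16 in pup 2, a mean of 2.22 ± 0.097. The ratio of Mir191 to Mir378a was 1.54 and 1.30, a mean of 1.42 ± 0.17. The pair from separate chromosomes, Mir378a and Mir425, therefore differed less between the pups in its ratio than the pair of neighbours did.

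Pup 2 was compared with pup 1 by an exact two-sided binomial test given both totals, with Benjamini-Hochberg adjustment over all 424 genes tested. The pups are 2 libraries, so the test compares those libraries and covers counting error only. Of the 424 genes 180 were called, a share of 42.5%, with 26.7% higher and 15.8% lower in pup 2. All 3 genes were called higher in pup 2, against that background of 26.7%. That share is not matched for counts, on which a call depends, and the 3 genes were chosen by their counts. Mir425 was 1.32-fold higher (log2 ratio 0.40, 95% counting interval 0.33 to 0.47, adjusted p = 2.1e-27 in the exact binomial test). The Mir378a locus was 1.24-fold higher (0.31, interval 0.26 to 0.36, adjusted exact p = 2.2e-36). The Mir191 locus was 1.04-fold higher (0.06, interval 0.02 to 0.10, adjusted exact p = 0.0092). The median log2 ratio of all tested genes was 0.05, close to that of Mir191. With TMM or DESeq2 scaling, which lowered all ratios by 0.04, the Mir191 locus was no longer called (adjusted exact p = 0.53 and 0.54), and the calls of Mir425 and Mir378a held.

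**Figure D4:**
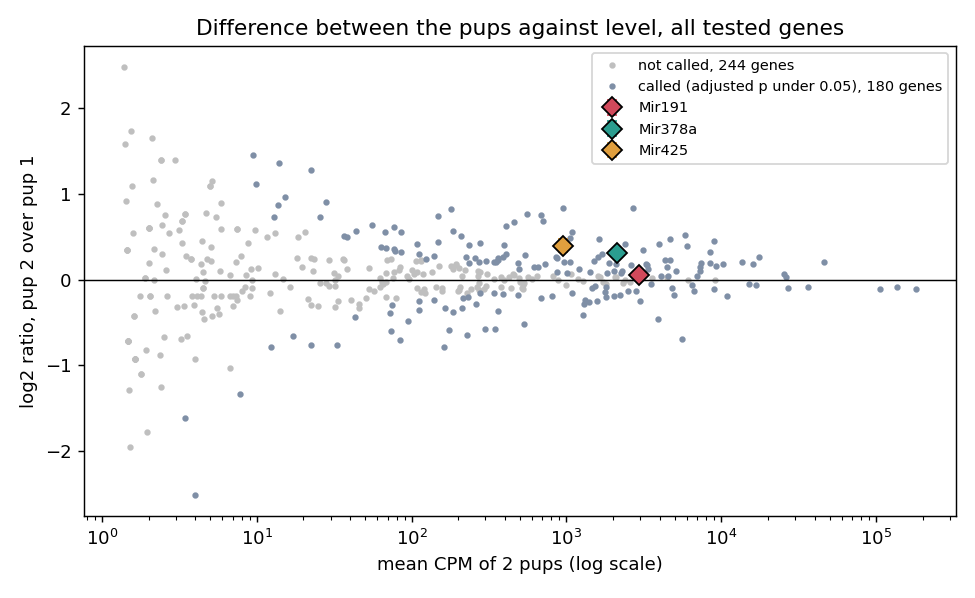
Log2 ratio of pup 2 over pup 1 (vertical) against mean CPM (horizontal, log scale) for the 424 tested genes, those called in the exact binomial test in blue-grey and the others in light grey. Diamonds are Mir191, Mir378a and Mir425 with 95% counting intervals, mostly hidden by the symbols; Mir191 (0.06) lies near the zero line, and Mir378a (0.31) and Mir425 (0.40) above it.

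Among genes of like level the log2 ratio of Mir191 lay near the middle and those of Mir378a and Mir425 toward the upper end. Of 61 detected genes within 2-fold of the mean CPM of Mir425, 7 had a higher log2 ratio and 54 a lower one, over a range of -0.52 to 0.83. Of 58 such genes for Mir378a, 7 were higher and 51 lower. Of 56 for Mir191, 26 were higher and 30 lower. The nearest ratios at like level were those of Mir219a-2 (0.34), Mir138-1 (0.48) and Mir183 (0.49) for Mir425. For Mir378a they were those of Mir16-1 (0.30), Mir128-1 (0.34) and Mir132 (0.26). For Mir191 they were those of Mir381, Mir151 and Mirlet7e, with log2 ratios of 0.05, 0.05 and 0.04. With 2 pups, likeness in this measure rests on 1 ratio per gene.

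A difference such as that between Mir191 and Mir425 was not rare among neighbouring miRNA genes. Counting only genes that reached 100 counts in both libraries, 88 pairs of successive genes lay on the same strand within 10000 bases of each other. The log2 ratios of Mir191 and Mir425 differed by 0.34, against a median of 0.22 over these pairs, and 27 pairs differed by more. The largest difference, 0.94, was between Mir496a and Mir377. The mean levels of Mir191 and Mir425 differed 3.11-fold, close to the median of 3.31-fold, and 45 pairs lay further apart. Many of these pairs share genes and clusters, so they are not independent. Nor were they matched for counts, and genes with fewer counts, such as Mir377 (192 and 282), carry more counting error in their ratios.

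Mir191 and Mir425 belong to a list of 12 miRNA genes that are used as references in small RNA assays, all 12 of them detected. Of these, 8 were called higher in pup 2 and none lower, where 26.7% of all tested genes were called higher and 15.8% lower. The list's median log2 ratio was 0.21, against 0.05 over all 424 tested genes. The shares of all genes are not matched for counts, on which a call depends. Mirlet7i was called at a log2 ratio of 0.06 (80469 and 95802 counts), and Mir103-1 was not at 1.15 (10 and 26 counts). With TMM or DESeq2 scaling 7 of the 12 were called higher and 2 lower, Mir191 losing its call and Mir93 and Mir484 being called lower. By size of the ratio, scaled to own-strand totals, Mir191 ranked 3 of 12, behind Mir93 (log2 ratio -0.02, adjusted exact p = 0.41) and Mir484 (-0.03, adjusted exact p = 0.41). Mir425 ranked 10, next to Mir16-1 (0.30) and Mir16-2 (0.40). With TMM scaling the log2 ratios were 0.019 for Mir191, -0.065 for Mir93 and -0.071 for Mir484. Mir191 then lay ahead of both, so its rank depended on the scaling. Of the 12 genes, 7 lay within 1.2-fold between the pups, against 58.7% of all tested genes. Mir103-1 (10 and 26 counts) and Mir103-2 (162 and 202 counts) make the same mature strand. Reads that fitted both were not counted, as for the Mir16 genes, so these levels are not those of the mature miRNA.

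**Figure D5:**
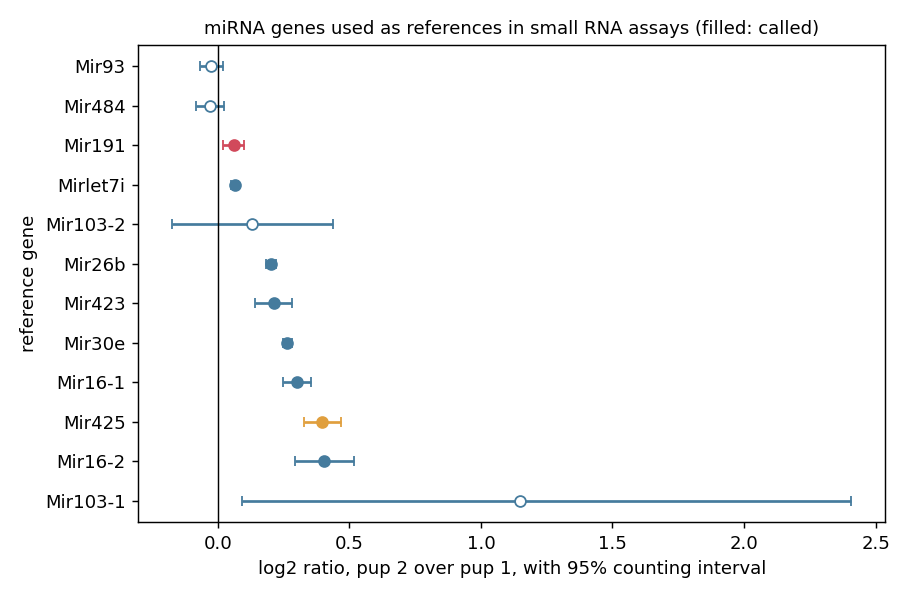
Log2 ratio of pup 2 over pup 1 with its 95% counting interval (horizontal) for the 12 reference genes, ordered from the smallest to the largest size of the ratio; filled points were called in the exact binomial test. With this scaling to own-strand totals, Mir191 (red, 0.06) is the third from the top and Mir425 (orange, 0.40) the tenth. The widest interval is that of Mir103-1, with 10 and 26 counts.

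In the miR-378 family only Mir378a was detected. Mir378d had 4 counts in pup 1 and 11 in pup 2, Mir378c 5 and 1, and Mir378b 0 in both. The precursor of Mir378a shares stretches of up to 20 bases with Mir378c, 19 with Mir378b and 15 with Mir378d. Reads that fitted several family members were not counted, and their number was not measured. Among the 8 miRNA genes in introns of metabolic and muscle genes, 7 were detected. Mir107, in the pantothenate kinase gene Pank1, stood above Mir378a at 2797 CPM ± 183, and was lower in pup 2 (log2 ratio -0.13, adjusted exact p = 8.8e-10). Mir33, in the sterol regulator gene Srebf2, stood at 74.7 CPM ± 10.9 and was called lower (-0.30, adjusted exact p = 0.049), a call lost when genes with as few as 1 count were tested (adjusted exact p = 0.080). In all 2 of the 8 were called higher, Mir378a and Mir499, and 2 lower, beside 26.7% and 15.8% of all tested genes. The list's median log2 ratio was 0.06, against 0.05 over all tested genes.

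Markers of other tissues in which these miRNAs are abundant were also read. The blood and immune list, 7 of 8 genes measured and all 7 detected, summed to 963 CPM in pup 1 and 1099 CPM in pup 2. That sum leaves out Mir486b, which had no row, and reads that fitted several places. In this list 4 genes were called higher in pup 2 and none lower, beside 26.7% and 15.8% of all tested genes. Mir486 lost its call with TMM or DESeq2 scaling and with the minimum of 1 count, which left 3. Among those called were Mir451a of red cell precursors (92.3 and 123 CPM, log2 ratio 0.42, adjusted exact p = 0.00035) and Mir223 of myeloid cells (149 and 222 CPM, 0.57, adjusted exact p = 1.6e-11). The other 3 were not called and had log2 ratios below 0, which were -0.32 for Mir144, the neighbour of Mir451a, -0.16 for Mir155 and -0.09 for Mir150. The striated muscle list, 9 of 10 genes measured and 3 detected, summed to 89.9 and 133 CPM. Mir206 of skeletal muscle (log2 ratio 0.55) and Mir499 (1.46) were called higher and none lower among the 6 tested, beside the same shares of all genes. Of the others tested, Mir208a (10 and 3 counts, -1.77) and Mir208b (-0.01) had log2 ratios below 0 and were not called, nor were Mir1b (0.76) and Mir133b (1.40). Mir1a-1, Mir133a-1 and Mir133a-2 were at 0, but mature strands made by several genes lose reads that fit more than 1 place. In the brown fat list, 4 of 5 genes were detected, with Mir455 called higher (0.30) and Mir193b (-0.76), Mir196a-1 (-0.66) and Mir196a-2 (-0.41) called lower, beside the same shares of all genes. The call of Mir196a-1 was lost with the minimum of 1 count (adjusted exact p = 0.063). The Mir196a genes lie in Hox clusters. In the neuronal list 5 of the 9 genes tested were called higher and none lower, beside the same shares of all genes. With TMM or DESeq2 scaling 4 were called higher. The neuronal median log2 ratio was 0.25, against 0.23 in the blood and immune list. Endothelial Mir126a was lower in pup 2 (-0.10) and Mir122 of hepatocytes also (104 and 64.2 CPM, -0.70). The part of these tissues in the counts of Mir191, Mir425 and Mir378a was not tested.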

How the data were processed

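Each library came with a table that the authors deposited, holding raw counts of reads per annotated miRNA gene in 3 columns: both strands together, the gene's own strand, and the strand opposite to it. Per the deposited text files the build was mm10 and the annotation GENCODE M4; which aligner and counter were used is not given in the sources used here. Read classes that name no gene stayed out of totals. Rows were matched by Ensembl identifier to GENCODE M21 (1894 of 1973). CPM is the count scaled to the own-strand total, where 1 count was 0.311 CPM in pup 1 and 0.273 CPM in pup 2. A gene was detected with 10 counts in both pups. Opposite-strand loci had at least 10 opposite and at most 2 own-strand counts in each pup. Log2 ratios had 0.5 added to each count. The binomial test covered all own-strand rows and opposite-strand loci with at least 10 counts summed over the pups, and was called at 0.05. It was tested on simulated data that held counting error only, so spread between pups was not covered.

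The members, lists and tests were chosen with earlier results of these data known. Named were the members, the list genes, genes nearest in level or ratio, and genes sharing a seed; the pairs of neighbouring genes, the nearest other miRNA gene, Mir7654 and Mir9-1 were added after values were seen. Other settings tried were scaling by TMM or DESeq2 factors, other totals, count minimums, pseudocounts, either-strand counts and leaving out each pup. The binomial tests used scipy 1.17.1 with pandas 2.3.3 and numpy 2.4.6 under Python 3.11.15, figures used matplotlib 3.10.9, and scaling factors came from DESeq2 1.42.0 and edgeR 4.0.16 under R 4.3.3.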

Additional observations from a re-analysis of the deposited data

How the results depend on the processing

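The log2 ratio of the Mir191 locus was 0.019 with TMM and 0.018 with DESeq2 scaling and no longer called; those of Mir425 (0.36 to 0.40) and Mir378a (0.27 to 0.31) stayed called throughout. Scaled to all reads, mean CPM was 482 (Mir425), 1498 (Mir191) and 1067 (Mir378a); without Mir10b, the most abundant gene, in the total these were 1160, 3610 and 2569 CPM, both by construction of the total. With 1 count in both pups as the detection minimum, 3 miR-378 genes and 6 muscle genes were detected. With 50 counts, 4 intronic metabolic genes and 1 muscle gene were. Calls of list genes lost were Mir33, Mir196a-1 and Mir486 with the test minimum of 1 count, and Mir153 and Mir486 with TMM or DESeq2 scaling, under which Mir93 and Mir484 were called lower. All genes called numbered 169 to 184 instead of 180. With 2 pups, leaving out 1 cannot move a mean by its SD, and scaling cannot move a ratio between genes of a pup, so those comparisons could not have come out otherwise. No paired analysis was possible because there is 1 group.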
